A study of Bos taurus with 90 samples.

Results

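The transcriptomes of cumulus cells (CCs) from small and large bovine antral follicles were compared over 18 of the 90 RNA-seq libraries of the series, 8 CC pools from small follicles against 10 from large follicles. CCs are the granulosa cells that enclose the oocyte. They pass metabolites and signals to it through gap junctions, and they respond to the growth factors it secretes, while mural granulosa cells (MGCs) line the follicle wall. As an antral follicle grows, fluid fills its cavity, its granulosa cells acquire responses to the gonadotropins, and most follicles that start to grow become atretic before they could ovulate.

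The ovaries came from Bos taurus cows at a slaughterhouse, and the follicles were untreated. Diameters ran from 3.1 to 3.8 mm for small and from 9.6 to 11.6 mm for large follicles. Each CC sample was a small pool of tightly adherent cells taken from 1 oocyte, and the MGCs and the oocyte of the same follicle have libraries of their own. Follicles with visible signs of atresia had been discarded at collection, and breed, age and cycle stage are not given in the sources used here. Of 10 small and 10 large CC libraries, all large ones and 8 small ones entered the comparison. The library CS70701 was left out here with 1666212 counts over 1066 genes. CS70702 came from a follicle that the study itself had removed. It held 13558016 counts over 23838 genes, more genes than in any other CC library of small or large follicles. The study named 3 of these small follicles (CS62003, CS62004 and CS62005) and 4 of these large ones (CL70703, CL72101, CL71801 and CL70504) healthy from the expression of a few genes in their MGCs, so that the healthy subset was not chosen on CCs. The remaining 5 small and 6 large follicles are called the other follicles.

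The files list genes by Ensembl identifier without symbols, and no source used here links the 2, so genes are described by identifier, by count and by the cell type in which they were most abundant. For this purpose genes were sorted on the 8 retained medium follicles, which the study had not removed and which were not part of the comparison. This gave 1490 oocyte-enriched genes, 850 MGC-enriched genes, 272 CC-enriched genes and 1550 genes shared by both somatic cell types. The labelled cell types were checked with these genes in the small and large follicles. CC-enriched genes held a median of 13.9% of the counts in the 18 CC libraries, 1.81% in the 18 MGC libraries and 0.523% in the 18 oocyte libraries of the same follicles. Oocyte-enriched genes held 0.757% to 1.22% of the counts in CCs, close to the 0.627% to 1.05% in MGCs and far below the 30.7% to 35.4% in oocytes. MGC-enriched genes held 1.05% to 3.13% in CCs and 9.88% to 19.1% in MGCs.

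The CC libraries held 8760201 counts (CS62004) to 40180192 counts (CL62802). The libraries CS50501 and CS71701, both of small follicles outside the healthy subset, stood apart from the other 16. Their 10 most abundant genes took 26.3% and 21.3% of all counts, against 9.76% to 17.0% elsewhere, and their TMM scaling factors were 0.461 and 0.624, against 0.818 to 1.24. CS50501 also had the fewest genes with a count, 11872. The first principal component, with 45.2% of the variance, separated them from the rest at 217 and 151, whereas the other 16 libraries lay between -46.0 and 26.2. The second component, with 13.9% of the variance, placed the large follicle libraries CL62803 and CL70703 at 97.4 and 92.5, away from all others. Of the 15061 genes tested, 2610 (17.3%) were lower and 1786 (11.9%) higher in both CS50501 and CS71701 than in each of the other 16 libraries. The main results are therefore also given without them.

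**Figure D1:**
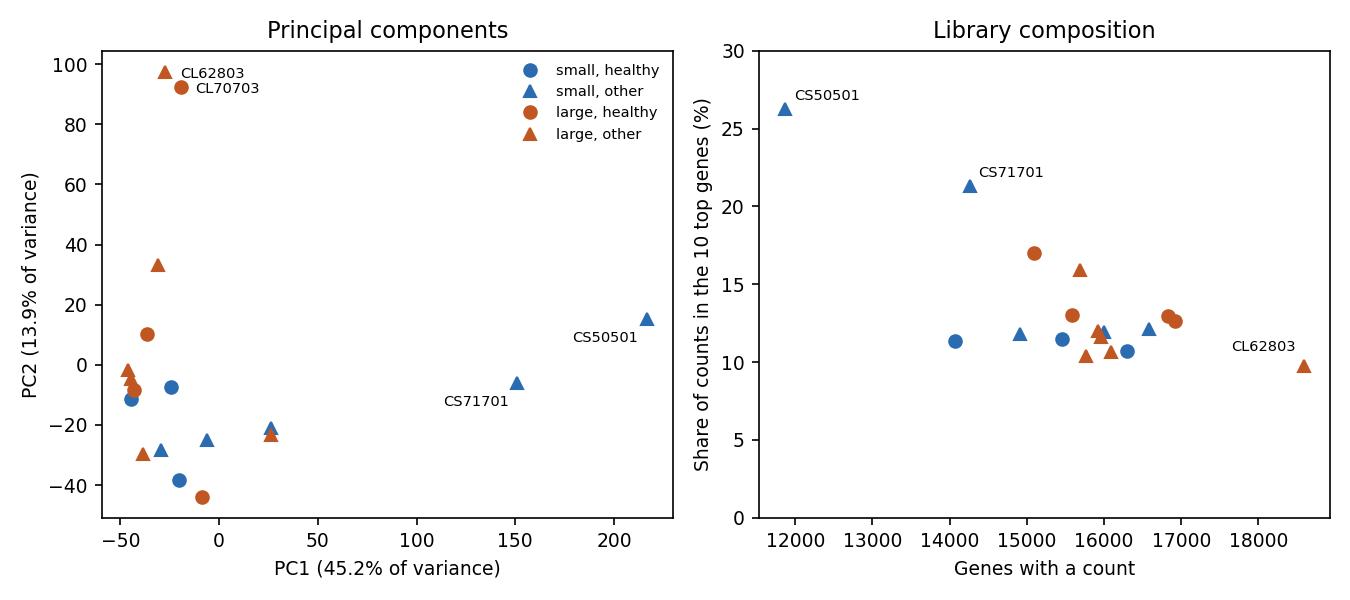
Left, the first 2 principal components of log2(CPM + 1) over the 15061 genes tested, 1 point per CC library. Right, the number of genes with a count against the share of counts in the 10 most abundant genes. CS50501 and CS71701 lie apart in both plots, and small and large follicles overlap elsewhere on the first component.

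Across the whole transcriptome, stage took a modest share of the distance between CC libraries. The share of the summed squared distance that lay between small and large follicles was 13.3%, against a median of 5.21% when stages were reassigned (exact permutation test over 43758 arrangements, one-sided p = 0.0162). Without CS50501 and CS71701 the share was 10.4% (exact permutation p = 0.0711, 8008 arrangements). In the healthy subset it was 24.0% beside a permuted median of 15.2% (exact permutation p = 0.114 over 35 arrangements, where the smallest possible p is 0.0286). In the other follicles it was 22.7% (exact permutation p = 0.0346, 462 arrangements), and 13.6% without CS50501 and CS71701 (exact permutation p = 0.333, 84 arrangements).

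In the comparison of 8 small with 10 large follicles, 92 differentially expressed genes (DEGs) were detected at a Benjamini-Hochberg adjusted p below 0.05 in edgeR's quasi-likelihood test and a fold change above 2. These were 59 genes higher in large follicles (0.392% of the 15061 tested) and 33 lower (0.219%). The 59 rising genes had log2 fold changes from 1.27 to 8.81 with a median of 2.13, beside a median of 0.12 over all genes. The 33 falling genes ranged from -1.07 to -8.58 with a median of -2.62. All 92 adjusted p-values lay between 0.0441 and 0.0499, directly under the threshold. At an unadjusted p below 0.05 with the same fold, 1364 genes (9.06%) were higher and 984 (6.53%) lower, and DESeq2 called 593 (3.94%) and 423 (2.81%), among them all 59 rising and 26 of the 33 falling DEGs.

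The number of DEGs moved with single libraries, and the number of genes at an unadjusted p moved less. When each library was left out in turn, 0 to 287 DEGs were called, with 0 in 9 of the 18 fits, whereas 1124 to 1565 genes were higher and 541 to 1073 lower at an unadjusted p. The fits with 0 DEGs were those without CS50501, CS50506, CS62003, CS71701, CL62802, CL70703, CL62803, CL71801 or CL70504. Their smallest adjusted p-values lay between 0.0533 and 0.0900. The most DEGs were called without CS62005 (287) and without CL50505 (233), followed by 145 without CS70501. The DEGs fell to 46 without CS62004, 46 without CS50502, 53 without CL70503, 15 without CL71802 and 2 without CL72101.

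Without CS50501 and CS71701 together, edgeR called 0 DEGs (smallest adjusted p = 0.0615) and DESeq2 called 261 rising (1.73%) and 14 falling genes (0.093%). At an unadjusted p below 0.05 and a fold above 2, 1048 genes (6.96%) were higher in large follicles and 158 (1.05%) were lower. Of the 1364 genes higher with all libraries, 901 were also among the 1048, and of the 984 lower ones, 110 were among the 158.

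**Figure D2:**
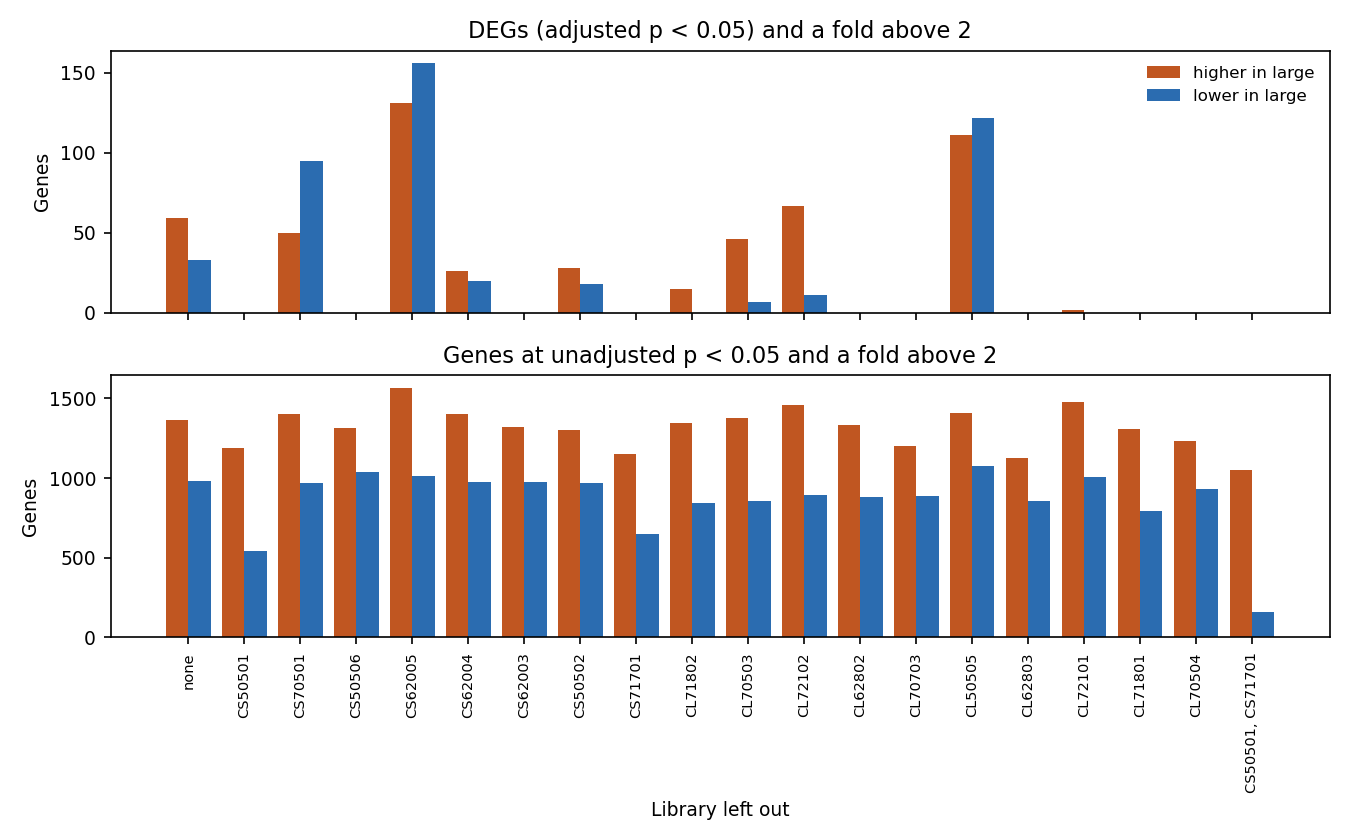
Number of genes higher (orange) or lower (blue) in large follicles with no library left out, with each of the 18 CC libraries left out and with CS50501 and CS71701 both left out. The upper plot counts DEGs, which range from 0 to 287 with single libraries left out, and the lower plot counts genes at an unadjusted p below 0.05, of which the lower ones drop to 158 without both libraries.

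The 59 rising genes and the 33 falling genes rested on the libraries in different ways. For each library, the level of every gene was compared with its median over the 6 small follicle libraries other than CS50501 and CS71701, and the median difference over the genes was taken. This is a description of genes that were called on the same libraries. For the rising genes, the 8 small libraries lay between -1.15 (CS71701) and 0.19 on the log2 scale. The 10 large libraries lay between 0.44 and 2.54, all above the small ones. The lowest large libraries were CL72102 (0.44), CL70503 (0.73) and CL71802 (1.10), which came from the 3 smallest of the large follicles (10.0, 10.0 and 9.6 mm). All 3 are also outside the healthy subset. The 7 large follicles of 10.2 mm or more lay between 1.34 and 2.54, and of these CL62802, CL50505 and CL62803 are outside the healthy subset. Whether diameter or set goes with the difference was not tested. Gene by gene, the groups rarely separated in full, and 3 of the 59 had no overlap between small and large follicles (10 of the 15061 genes tested, 0.0664%, had none in this direction). In 25 of the 59 genes both CS50501 and CS71701 were lower than all other 16 libraries, beside 17.3% of all genes tested.

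For the falling genes, CS50501 was 4.01 and CS71701 2.83 above the reference on the log2 scale. The other 6 small libraries lay between -0.56 and 0.56, and the 10 large libraries between -0.87 and -0.30. In 29 of the 33 genes both CS50501 and CS71701 were higher than all other 16 libraries, beside 11.9% of all genes tested. In CS50501, 28 of the 33 had their highest level, and the share of all genes highest there was not counted. None of the 33 separated all small from all large follicles, beside 2 of all genes tested (0.0133%). Without CS50501 and CS71701, the median log2 fold change of the falling genes was -0.74. Of the 33, 8 kept an unadjusted p below 0.05 with a fold above 2 (1.05% of all genes tested did so in this direction). The median of the 59 rising genes was 1.99 without these 2 libraries. All 59 kept an unadjusted p below 0.05 with that fold (6.96% of all genes tested did so in this direction).

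**Figure D3:**
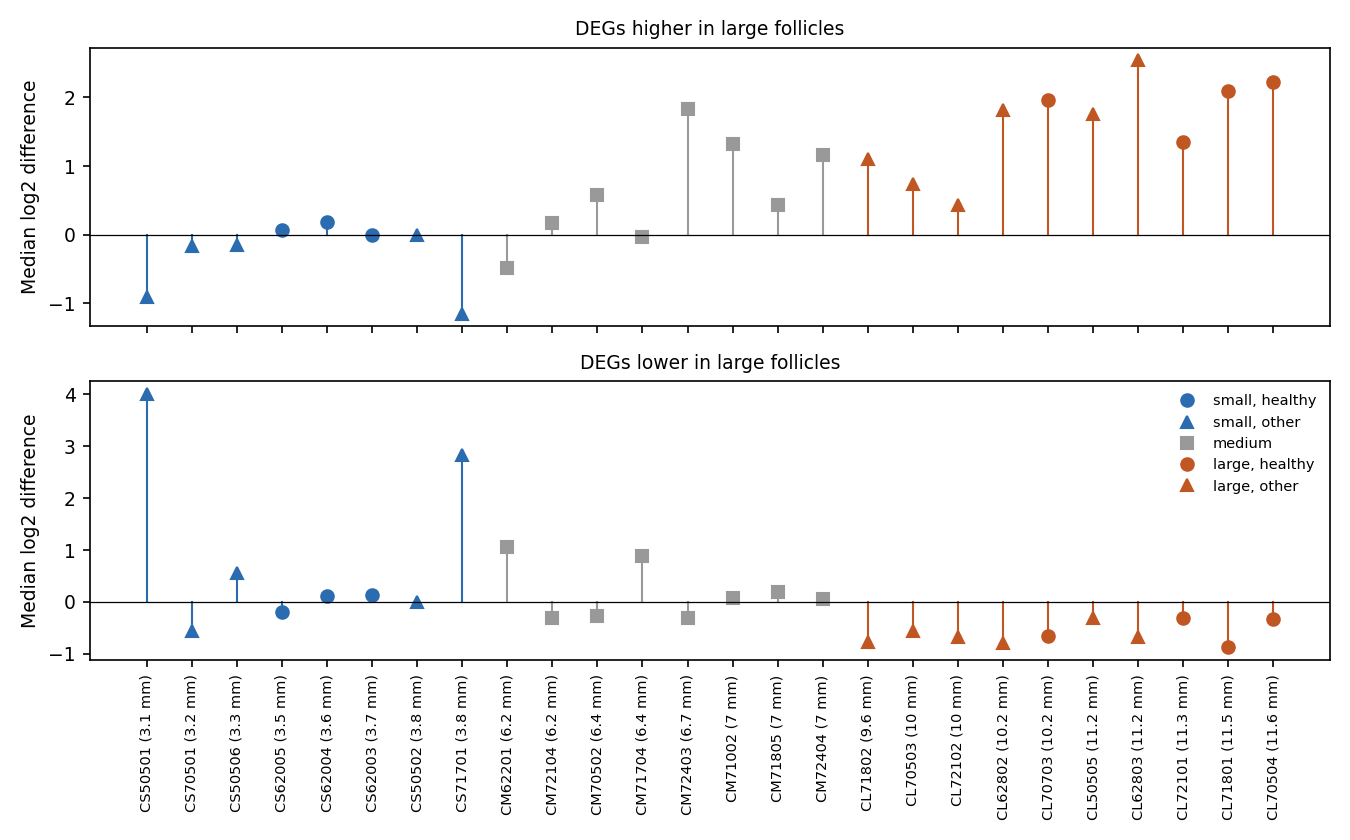
Median log2 difference of the 59 DEGs higher in large follicles (top) and of the 33 DEGs lower in large follicles (bottom) in each CC library, relative to the median of the 6 small libraries other than CS50501 and CS71701, with the libraries ordered by stage and follicle diameter. The rising genes are lowest among large follicles in the 3 of 10.0 mm or less, which are all outside the healthy subset. They reach 1.16 to 1.83 in 3 medium follicles, and the falling genes are high in CS50501 (4.01) and CS71701 (2.83).

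The medium follicles, which were not in the fit, were not uniform for the rising genes. In 3 of the 8 medium libraries, CM72403, CM71002 and CM72404, the rising genes were 1.83, 1.32 and 1.16 above the small reference. These are the medium follicles that the study named healthy. The other 5 medium libraries lay between -0.48 and 0.58, of which CM70502 (0.58) was also above the lowest large library. By gene, the median of the medium follicles was above the midpoint between small and large in 22 of the 59 rising genes, beside 47.1% of all genes with a log2 fold change above 0. For the falling genes the medium libraries lay between -0.32 and 1.07. By gene, the median of the medium follicles was above the midpoint between small and large in 30 of the 33 falling genes. The share over all genes with a log2 fold change below 0 was not counted.

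Among the more abundant rising DEGs (mean log2 CPM no lower than 3), ENSBTAG00000034712 changed most. Its level in TMM-scaled CPM (counts scaled to a common library size) was 0.135 in CS50501, 1.62 in CS50502, 1.91 in CS62003, 2.59 in CS62005, 2.94 in CS62004, 3.19 in CS70501, 3.54 in CS50506 and 4.43 in CS71701, all low. In large follicles its level was 1.25 in CL71802, 1.73 in CL70503, 2.05 in CL72102, 19.7 in CL62803, 20.4 in CL70703, 24.8 in CL62802, 38.7 in CL70504, 68.5 in CL72101, 83.0 in CL71801 and 94.9 in CL50505. The groups overlapped through the 3 large follicles of 10.0 mm or less, which were as low as small follicles. Each of the 7 large follicles of 10.2 mm or more was higher than every small one. The 3 low ones are all outside the healthy subset, as are CL62802, CL50505 and CL62803 among the 7. Whether diameter or set goes with the level was not tested. The log2 fold change was 3.79 ± 0.77 (SE, n = 8 and 10, edgeR adjusted p = 0.0441). It was 3.76 without CS50501 and CS71701 (adjusted p = 0.0818). In the medium follicles that were high for the rising genes as a group the level of ENSBTAG00000034712 was also high, 18.4 in CM72403, 18.6 in CM71002 and 22.1 in CM72404, and it was 0.571 to 8.32 in the other 5. In MGCs of the small and large follicles this gene had a level of 0.101 to 1.51, and in their oocytes it did not exceed 1.55.

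The falling DEG with the largest change among those as abundant was ENSBTAG00000043549. Its level was 11676 in CS50501 and 494.9 in CS71701, and in the other 6 small follicles it was 0.543, 1.14, 1.43, 3.73, 5.67 and 10.1. In the 10 large follicles the lowest, median and highest levels were 0.597, 4.18 and 11.9, so that only CS50501 and CS71701 lay outside their range on the high side. The log2 fold change of ENSBTAG00000043549 was -8.42 ± 1.67 (SE, n = 8 and 10, edgeR adjusted p = 0.0441), and without these libraries it was 0.35 (adjusted p = 0.865). It is a CC-enriched gene by the medium follicles, in which its level was 10.1 to 104.3. In the MGCs of small and large follicles it was 0.141 or lower, and in their oocytes 2.33 to 119.

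The healthy subset of 3 small and 4 large follicles gave 14 DEGs, all higher in large follicles (0.0946% of the 14797 genes tested) and none lower. At an unadjusted p below 0.05 and a fold above 2, 708 genes (4.78%) were higher and 252 (1.70%) lower. DESeq2 called 251 rising and 37 falling genes, among them all 14, and limma's voom with quality weights called 303 and 148. The log2 fold changes of the 14 genes ran from 2.40 to 10.9 with a median of 3.56, and their edgeR adjusted p-values from 0.0117 to 0.0488. Small and large healthy follicles did not overlap for any of the 14, as for 5.08% of all genes tested in this direction. Of these genes, 4 were CC-enriched, 3 were shared by both somatic cell types, and none was oocyte-enriched or MGC-enriched, beside 1.84%, 10.5%, 9.37% and 5.54% of all genes tested. The count of DEGs ran from 0 to 277 with single libraries left out. It was 0 without CS62003, CS62004, CS62005 or CL70504, 8 without CL71801, 37 without CL72101 and 277 without CL70703, the library that lay apart on the second principal component. The spread between libraries was smaller in the healthy subset, with a common biological coefficient of variation of 0.579 beside 0.777 over all 18 libraries, 0.844 in the other follicles and 0.664 without CS50501 and CS71701. The 3 healthy small follicles share the first 3 digits of their identifiers and no large follicle has them. What these digits stand for is not given in the sources used here, and in the healthy subset they and the stage cannot be told apart.

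The other follicles, 5 small and 6 large, share no library with the healthy subset and were used to follow its 14 DEGs. Among large follicles, CL72102, CL71802 and CL70503 share the first 3 identifier digits with the healthy CL72101, CL71801 and CL70504, so the sets may not be independent. In the other follicles 13 of the 14 were again higher in large follicles, beside 56.7% of all 15009 genes tested there. An unadjusted p below 0.05 with a fold above 2 was reached by 8 of the 14, beside 8.08% of all genes in this direction, and none passed the adjusted p in edgeR. DESeq2 called 4 of the 14 in the other follicles (3.06% of all genes in this direction). Their median log2 fold change in the other follicles was 1.56, with a range of -1.04 to 3.19. Without CS50501 and CS71701 the count of 13 with the same sign stayed at 13 and 6 reached the unadjusted threshold (4.83% of all genes). Without CL50505, 3 of the 14 reached it, and without CS50506 all 14 had the same sign.

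**Figure D4:**
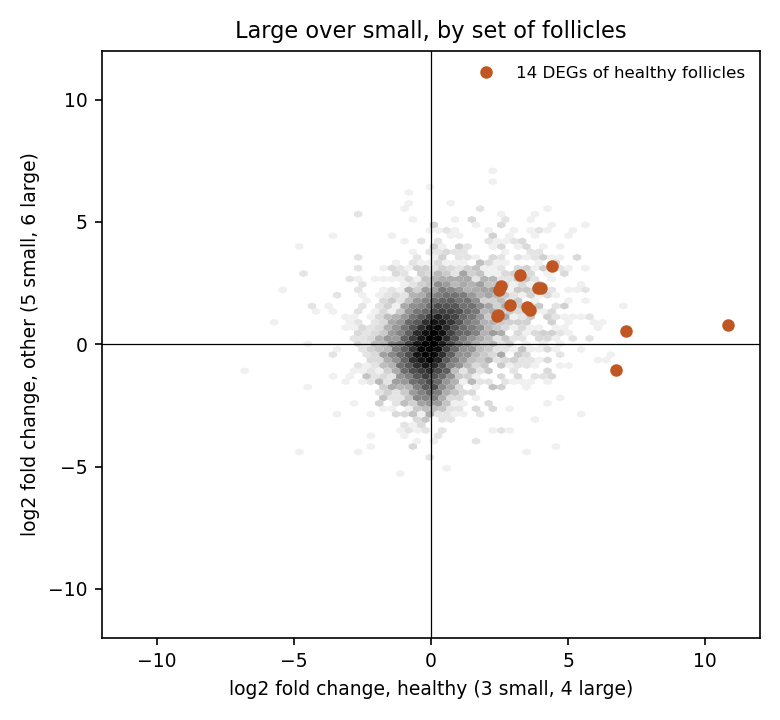
Log2 fold change of large over small follicles in the healthy follicles (horizontal axis, 3 small and 4 large) and in the other follicles (vertical axis, 5 small and 6 large), with genes in grey bins whose shade follows their number on a log scale. The 14 DEGs of the healthy follicles are in orange, and 13 of them lie above 0 in the other follicles.

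The largest rise among the abundant healthy DEGs was that of ENSBTAG00000031194, and it is the gene of the 14 whose log2 fold change had the other sign in the other follicles. Its level was 0.130, 0.256 and 0.405 in the 3 healthy small follicles and 10.3, 19.6, 36.5 and 40.7 in the 4 healthy large ones. The 2 healthy groups were far apart, with a log2 fold change of 6.76 ± 0.74 (SE, n = 3 and 4, edgeR adjusted p = 0.0117). In the 5 other small follicles, however, the level of ENSBTAG00000031194 was 9.67, 10.9, 15.6, 22.5 and 160.3, and in the 6 other large follicles 0, 8.17, 8.57, 11.7, 32.1 and 67.3. The other small follicles were thus as high as large follicles, and the log2 fold change there was -1.04 ± 1.04 (SE, n = 5 and 6, edgeR adjusted p = 0.616). That sign rested on CS50506, which had the level of 160.3, and without it the log2 fold change of ENSBTAG00000031194 in the other follicles was 0.50 (edgeR adjusted p = 0.823). The value of 0 in CL72102 stands for 0 of 34377796 counts, which allows a level of up to 0.0873 CPM. The difference between the healthy and the other follicles in the stage effect on ENSBTAG00000031194 was 7.80 ± 1.85 on the log2 scale (SE, edgeR interaction adjusted p = 0.775, unadjusted p = 0.000336 in the fit over all genes), and DESeq2 gave 7.76 with an adjusted p of 0.00575. Without CS50506 the difference was 6.25 (edgeR adjusted p = 0.610) and 6.26 in DESeq2, which gave an unadjusted p of 1.6e-05 and no adjusted p for it. The 3 healthy small follicles share the first 3 digits of their identifiers, which no other small follicle has. Among small follicles the set and these digits therefore cannot be told apart. Over all 18 libraries the log2 fold change was -0.23 (edgeR adjusted p = 0.915). The gene was abundant in oocytes of the small and large follicles, at 24.4 to 102 TMM-scaled CPM within oocyte libraries, and scarce in MGCs, at 0.0538 to 2.61 within MGC libraries. Whether RNA of the oocyte took part in its level in the CC pools was not tested.

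ENSBTAG00000034712 was also a DEG of the healthy subset, with levels of 1.91 to 2.94 in healthy small and 20.4 to 83.0 in healthy large follicles and a log2 fold change of 4.41 ± 0.56 (SE, n = 3 and 4, edgeR adjusted p = 0.0174). In the other follicles its log2 fold change was 3.19 ± 1.09 (SE, n = 5 and 6, edgeR adjusted p = 0.165), and without CL50505, where ENSBTAG00000034712 was highest, it was 1.93 (edgeR adjusted p = 0.306). With voom it was 0.43. The interaction was 1.24 ± 1.39 (SE, edgeR adjusted p = 0.951), and with voom it was 4.24 ± 1.17 (SE, voom adjusted p = 0.179).

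No gene passed as lower in large healthy follicles in edgeR. The gene with the smallest unadjusted p in this direction was ENSBTAG00000013162, whose values are given as such. Its level was 2291, 2359 and 2447 in the 3 healthy small follicles and 569.8, 692.9, 713.8 and 1088 in the 4 healthy large ones. The healthy groups did not overlap, as for 4.18% of all genes tested in this direction, and the log2 fold change of ENSBTAG00000013162 was -1.61 ± 0.33 (SE, n = 3 and 4, edgeR unadjusted p = 0.000332 in the fit over all genes, adjusted p = 0.102), while DESeq2 gave an adjusted p of 0.000728. In the other follicles the level was 1000 to 3425 in small and 897.8 to 1979 in large ones, which overlapped, with a log2 fold change of -0.27 ± 0.42 (SE, n = 5 and 6, edgeR adjusted p = 0.768). The interaction was -1.34 ± 0.58 (edgeR adjusted p = 0.775). Among medium follicles, those that the study named healthy were lowest, at 697.8, 731.1 and 954.3, and the other 5 lay between 1348 and 2604.

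**Figure D5:**
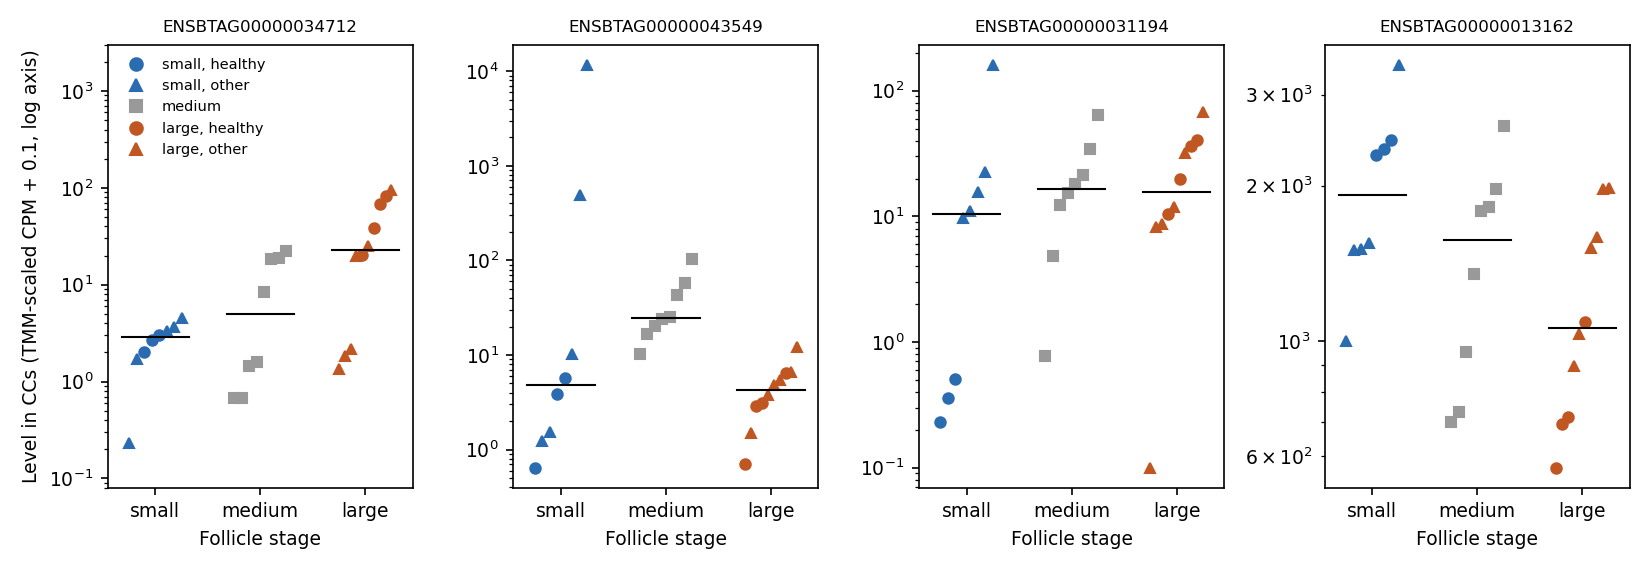
Level of 4 genes in each CC library as TMM-scaled CPM + 0.1 on log axes whose ranges differ between genes, by follicle stage, with the median of each stage as a bar. From left, the rising and the falling DEG of the 8 against 10 comparison, then the rising DEG of the healthy subset and its gene with the smallest p in the falling direction. For ENSBTAG00000043549 CS50501 (11676) and CS71701 (494.9) lie above all large follicles, and for ENSBTAG00000031194 the 3 healthy small follicles lie below 0.41.

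Among the other follicles alone, edgeR called 0 DEGs, with 1213 genes (8.08%) higher and 1246 (8.30%) lower in large follicles at an unadjusted p below 0.05 and a fold above 2. Without CS50501 and CS71701, which are 2 of the 5 small libraries here, 4.83% of genes were higher and 137 (0.914%) lower, and none was called (smallest edgeR adjusted p = 0.442). DESeq2 called 460 (3.06%) and 502 (3.34%) with them, and 95 and 3 without them. Leaving out CS70501 gave 308 DEGs in edgeR, and each other single library left out gave 0. For the difference in the stage effect between healthy and other follicles, edgeR called 0 genes, DESeq2 called 8 and voom called 2. At an unadjusted p with the fold, 657 genes (4.36%) had the larger change towards large follicles in the healthy subset and 278 (1.85%) the reverse. This balance turned round without CS50501 and CS71701, with 190 (1.26%) and 287 (1.91%).

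The genes called were counted in the classes defined on medium follicles. MGC libraries were made by another protocol than CC and oocyte libraries, so the classes mix protocol with cell type. Of all genes tested, 10.3% were shared by the somatic cell types, 1.81% were CC-enriched, 5.62% MGC-enriched and 9.77% oocyte-enriched. Of the 59 rising DEGs, 17 (28.8%) were shared by the somatic cell types, 7 (11.9%) were CC-enriched, 6 (10.2%) MGC-enriched and 5 (8.47%) oocyte-enriched, and 24 were in none of these classes. Of the 33 falling DEGs, 7 (21.2%) were CC-enriched, 3 (9.09%) shared by the somatic cell types, 3 (9.09%) oocyte-enriched and none MGC-enriched. The CC-enriched genes as a class had a median log2 fold change of 0.02, beside 0.12 for all genes, with 14.0% of them higher and 14.3% lower at an unadjusted p and a fold above 2 (9.06% and 6.53% of all genes). Without CS50501 and CS71701 these shares were 10.3% and 3.31% (6.96% and 1.05% of all genes). CC-enriched genes held 26.4% of the counts in CS50501 and 19.5% in CS71701, against 11.8% to 14.0% in the other 6 small follicles and 12.4% to 16.6% in large follicles.

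The MGC-enriched genes were the class whose median lay farthest from that of all genes. Their median log2 fold change was 0.68 over the 18 libraries, 0.62 without CS50501 and CS71701, 0.44 in the healthy subset and 0.89 in the other follicles, beside 0.12, 0.10, 0.08 and 0.18 for all genes. Of 847 tested, 165 (19.5%) were higher in large follicles at an unadjusted p and a fold above 2 and 28 (3.31%) were lower, beside 9.06% and 6.53% of all genes. Without CS50501 and CS71701 these were 136 (16.1%) and 18 (2.13%), beside 6.96% and 1.05% of all genes. In the healthy subset 7.68% were higher and 2.68% lower, beside 4.78% and 1.70% of all genes. Their summed share of the counts overlapped between the stages, at 1.28% to 2.35% in small and 1.05% to 3.13% in large follicles. Whether the number of mural cells in the pools differed between stages was not tested, and in such pools more cells of a type and more RNA per cell cannot be told apart. Oocyte-enriched genes had a median log2 fold change of 0.14, and their summed share was 0.757% to 1.22% in small and 0.850% to 1.21% in large follicles.

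The DEGs of CCs were then followed in the other cell types of the same 18 follicles, whose libraries are separate but whose ovaries and collection are shared. Of the 59 genes rising in CCs, 40 (67.8%) were higher in MGCs of large follicles, beside 48.6% of all 14868 genes tested in MGCs, with a median log2 fold change of 0.29. They included 3 DEGs of MGCs in that direction (0.888% of all genes). In oocytes 43 of 57 (75.4%) were higher in large follicles, beside 53.0% of all genes, with a median log2 fold change of 0.74 and 1 DEG (1.28% of all genes). Of the 33 genes falling in CCs, 24 (72.7%) were lower in MGCs of large follicles (51.4% of all genes), with 1 DEG there (1.85% of all genes), and 27 of 32 (84.4%) were lower in their oocytes (47.0% of all genes), with 4 DEGs (0.614%). The follicles of CS50501 and CS71701 are among these 18. In the healthy follicles alone, which lack both, the rising genes had a median log2 fold change of 0.13 in MGCs and 0.37 in oocytes. The falling genes had -0.77 and -0.65, beside 0.04 and -0.02 for all genes. There, 4 rising and 3 falling genes were DEGs of MGCs, beside 481 and 587 of 14650 genes tested. None was a DEG of oocytes, beside 0 and 1 of 14600.

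Only 2 sets of follicles shared the first 3 digits of their identifiers across stages, CS50501, CS50502 and CS50506 with CL50505, and CS70501 with CL70503 and CL70504. Within the first set the level of ENSBTAG00000034712 was 0.135, 1.62 and 3.54 in small follicles and 94.9 in the large one, and within the other it was 3.19 in the small and 1.73 and 38.7 in the large ones. With the digits as a covariate over all 18 libraries edgeR called 1 DEG, and 582 genes (3.86%) were higher and 445 (2.95%) lower at an unadjusted p and a fold above 2. Of the 59 rising genes 51 reached this in that fit, and of the 33 falling genes 5 did. In these 7 libraries alone edgeR called 0 DEGs, and 40 of the 59 rising genes and 4 of the 33 falling ones reached the unadjusted threshold (1.85% and 1.10% of all genes). The genes had been called with these libraries among the 18, so these counts are no separate evidence.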

How the data were processed

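CC and oocyte libraries were made by the authors with a SMART-seq2 protocol, amplified by PCR without molecular identifiers, and MGC libraries by standard bulk RNA-seq from extracted total RNA, so that levels in MGCs differ from the others in protocol as well as in cell type, including for the gene classes. The methods name STAR and the submitters' processing notes HISAT2 2.2.1 for alignment to ARS-UCD1.2, and which made the table was not settled. The deposited values are raw counts per gene from featureCounts, 27270 Ensembl identifiers by 90 columns, not normalized. The filter kept 15134 genes whose CPM exceeded 1 in 15 or more of the retained MGC, CC or oocyte libraries, and a gene without a count in a fit was left out of it.

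Stages were compared with edgeR 4.0.16 in R 4.3.3 (TMM, glmQLFit, glmQLFTest), with Benjamini-Hochberg adjustment over all genes tested. A DEG had an adjusted p below 0.05 and a fold change above 2. Standard errors are the log2 fold change divided by the square root of F. DESeq2 1.42.0 and voom of limma 3.58.1 were alternatives, beside other filters, size factors and covariates, and leaving out libraries. Scripts were tested on simulated data. Levels are TMM-scaled CPM, set within each cell type. Oocyte-enriched genes had a median log2(CPM + 1) in medium follicles at least 3 above both other cell types. The other classes used a margin of 2 over both other cell types, or over oocytes for genes of both somatic types. Log2 differences by library used the level plus 0.5. Distances used log2(CPM + 1), and every arrangement of the stages was enumerated.

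The libraries, thresholds and gene classes were chosen with earlier results of these data known, and the classes and the fits without CS50501 and CS71701 were added after seeing the data. The rule for genes named in the text was the DEG, or else the gene of smallest p, with the largest rise and fall in each comparison at a mean log2 CPM of at least 3, at most 2 rising and 2 falling. The planned pathway lists and cell type markers were not run, because they need symbols. The follicles came from several animals, and which follicle came from which animal is not given in the sources used here, so p-values measure the spread between these follicles, some of which may share an ovary.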

Additional observations from a re-analysis of the deposited data

Results flagged for a closer look

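In small follicles, the level of ENSBTAG00000043549 in CS50501, 11676 TMM-scaled CPM, lay far from the other 7 libraries, with a gap of 0.958 of the group's range. In large follicles its level in CL71802, 11.9, lay apart from the other 9 (gap 0.484 of the range). The level of ENSBTAG00000031194 in CS50506, 160.3, lay apart from the other 7 small follicles (gap 0.860 of the range). CL62803 had 18588 genes with a count, apart from the other 9 large follicles (gap 0.477 of the range). Such gaps were looked for in 26 sets of values, and how often chance alone flags a set of levels as skewed as these was not tested. ENSBTAG00000043549 had been named for a fold change that rested on CS50501 and CS71701, so its flag in CS50501 is no separate evidence.

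The stage effect on ENSBTAG00000031194 differed between the healthy and the other follicles in DESeq2's interaction test, by 7.76 on the log2 scale (DESeq2 adjusted p = 0.00575). In edgeR this difference did not pass (adjusted p = 0.775), and without CS50506 DESeq2 gave 6.26 with an unadjusted p of 1.6e-05 and no adjusted p. All 4 healthy large follicles were above all 3 healthy small ones, and the other follicles overlapped. The 3 healthy small follicles share first identifier digits that no other small follicle has, so set and digits cannot be told apart there.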

How the results depend on the processing

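The 59 rising and 33 falling DEGs of 8 against 10 became 593 and 423 with DESeq2, 19 and 4 with filterByExpr, 130 and 125 with no filter, 39 and 8 with voom, 189 and 316 with medium follicles in the fit, 40 and 10 with CS70702, and 1 and 7 with CS70702 and CS70701. They became 1 and 0 with the identifier prefix and 37 and 2 with the healthy or other set as a covariate, 0 and 0 in the prefixes of both stages, 1364 and 984 at an unadjusted p, 0 and 0 without CS50501 and CS71701, and 261 and 14 by DESeq2 without them. Leaving out 1 library gave 0 to 131 rising and 0 to 156 falling DEGs. The 14 DEGs of the healthy subset became 288 with DESeq2, 7 with filterByExpr, 184 with no filter, 8 with the CC filter, 451 with voom, 0 with all retained CC libraries in the fit and 960 at an unadjusted p, and 0 to 277 with 1 library left out. The 0 DEGs of the other follicles became 962 with DESeq2, 52 with no filter, 8 with voom, 750 with all retained CC libraries in the fit, 98 by DESeq2 without CS50501 and CS71701 and 2459 at an unadjusted p, and 0 to 308 with 1 library left out. The 0 genes whose stage effect differed became 8 with DESeq2, 6 with DESeq2 without CS50506, 2 with voom and 935 at an unadjusted p. The cause of these moves was not tested.

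The share of the distance between stages, 13.3%, had an exact permutation p of 0.25 when stages were permuted within the identifier prefix (12 arrangements, smallest possible p 0.0833), and without CS50501 and CS71701 it was 10.4% (exact permutation p = 0.0711). It was 10.4% to 15.9% with 1 library left out, and in the healthy subset 22.4% to 38.4%. Of the 14 healthy DEGs, 10 to 13 kept their sign in the other follicles under 9 alternatives, and 12 to 14 with 1 library left out. The log2 fold change of ENSBTAG00000043549 turned to 0.77 with voom, 0.35 without CS50501 and CS71701 and 0.31 by DESeq2 without them, and that of ENSBTAG00000034712 was 2.16 with voom (adjusted p = 0.321) and 3.50 to 4.34 elsewhere, where the call was lost with the prefix as a covariate (adjusted p = 0.503), in the prefixes of both stages (1.0), without CS50501 and CS71701 (0.0818) and in 10 of 18 fits without 1 library (0.0513 to 0.0900). No paired analysis was possible because each follicle belongs to 1 stage, so that replicate numbers join no small with a large follicle. Pathway counts were not run.

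Counts are not molecules, since CC libraries were amplified without molecular identifiers, and counting limits cover counting error only. The retained libraries were 8760201 counts or deeper. With 3 against 4 follicles and a coefficient of variation of 0.579 in the healthy subset, a gene that did not pass is not shown to be unchanged.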
